A study of Homo sapiens with 8 samples.

Results

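A group of 41 genes was lower with the BET inhibitor JQ1 in both HER2-positive breast cancer lines of the study and stayed within 2-fold of the vehicle with the HER2 inhibitor lapatinib. The genes were chosen by 3 conditions on log2(value + 1): JQ1 minus DMSO of -1.5 or less, lapatinib minus DMSO above -1 and below 1, and a value of 100 or more with DMSO, each met in both lines. They are 41 of the 20531 genes measured and of the 9236 genes with 100 or more in both DMSO libraries. All values are read counts that the authors had normalised, with the upper quartile of each library at 1000. These counts are not divided by gene length, so that levels are compared between libraries for the same gene, and a sum over genes or an order of genes by value is no comparison of their levels.

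The study grew SKBR-3 cells, a HER2-positive line without estrogen and progesterone receptors, and BT474m1 cells, a HER2-positive line with both receptors. Each line was given DMSO alone, 300 nM lapatinib, 300 nM JQ1, or 300 nM of each drug together. By the labels poly(A) RNA was sequenced after 48 h. A figure legend of the study also gives 48 h for RNA sequencing of SKBR-3 with DMSO or 300 nM lapatinib. The study's methods give a shorter treatment for cell lines in general. Each of the 8 groups held 1 library of 1 established line, so that there was no spread between replicates of a group and no test was made. Taking the lines as replicates of a treatment would count their own differences in response as error, in libraries that chose the genes, and was not done. The DMSO, lapatinib and JQ1 libraries chose the 41 genes, and their values are given as a description. The libraries with both drugs took no part in the choice, although every difference formed with them shares a library that did.

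BET proteins bind acetylated lysines on histones through their bromodomains and help RNA polymerase II to leave the promoter and elongate. JQ1 fills the acetyl-lysine pocket of these bromodomains and displaces the proteins from chromatin, most visibly at promoters and clustered enhancers. Lapatinib blocks the ATP site of the EGFR and HER2 kinases and so cuts signalling through the RAS and PI3K pathways. HER2-positive cells are known to answer lapatinib with new transcription of kinases, and the combination libraries address what BET inhibition does to transcription while HER2 is blocked.

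The libraries held 21420117 to 34112382 reads on genes, and 1 read was worth 0.471 to 0.766 units. The 41 genes had at least 15 reads in every library. Intervals given with log2 differences are exact 95% Clopper-Pearson intervals from these reads without the added 1, and they cover counting error only, since reads after PCR are not independent molecules. The markers of the labelled lines were present, with ERBB2 at 94678 to 277872, except for CDH1, the epithelial cadherin, which was 2.58 to 15.1 in SKBR-3. ESR1 and PGR were at most 16.8 in SKBR-3 and at least 189.9 in BT474m1. Several of the 41 genes are best known from blood cells, and PTPRC, the pan-leukocyte marker, was 0 to 3.38 in the 8 libraries. The summed value of the 6 leukocyte markers was 220.4 to 462 in SKBR-3 and 12.7 to 31.3 in BT474m1, that of the 8 fibroblast markers 24.1 to 129 and 342 to 1265, and that of the 4 endothelial markers 25.1 to 149 and 7.58 to 191. LUM was at 0 in all 8 libraries and PECAM1 in 6. Some of these markers were lower with JQ1, as the 41 genes were. From DMSO to lapatinib, JQ1 and both drugs, CSF1R, a myeloid receptor, was 83.8, 45.2, 10.3 and 7.57 in SKBR-3, and CDH5, the endothelial cadherin, 126, 71.2, 20 and 16.5. In BT474m1 VWF, an endothelial clotting protein, was 153, 30.7, 11.1 and 5.25, and COL1A1, a collagen chain, 1253, 1211, 394 and 337. CD68, a myeloid marker, made up most of the leukocyte sum in SKBR-3 and was not lower with JQ1 than with DMSO. In the same order it was 178, 407, 206 and 261 in SKBR-3, and 11.8, 27.7, 14.5 and 20.4 in BT474m1. The part of these markers in the results was not tested. In bulk RNA a gene that is lower in fewer cells and a gene that is lower in every cell cannot be told apart.

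JQ1 minus DMSO had a median of -1.89 over the 41 genes in SKBR-3, with a range of -4.09 to -1.51, and of -2.01 in BT474m1, with a range of -4.28 to -1.52. Of the 9236 genes, 2.02% were at -1.5 or less in SKBR-3, 1.86% in BT474m1 and 0.801% in both, and 81% stayed inside the lapatinib limits in both lines. These shares describe the choice and support nothing. Lapatinib minus DMSO ranged from -0.93 to 0.91 in SKBR-3, with a median of 0.09, and from -0.82 to just under 1 in BT474m1, with a median of 0.03. Lapatinib lay above DMSO in both lines for 15 of the genes (36.6%, against 35.9% of the 9236), below it in both for 10 (24.4%, against 35.2%), and on opposite sides for 16 (39%, against 28.9%), in libraries that the choice used. The limits are crossed by counting error in part of the group: 24 genes had a JQ1 interval wholly at or under -1.5 in both lines, and 29 had a lapatinib interval wholly inside the limits in both.

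**Figure D1:**
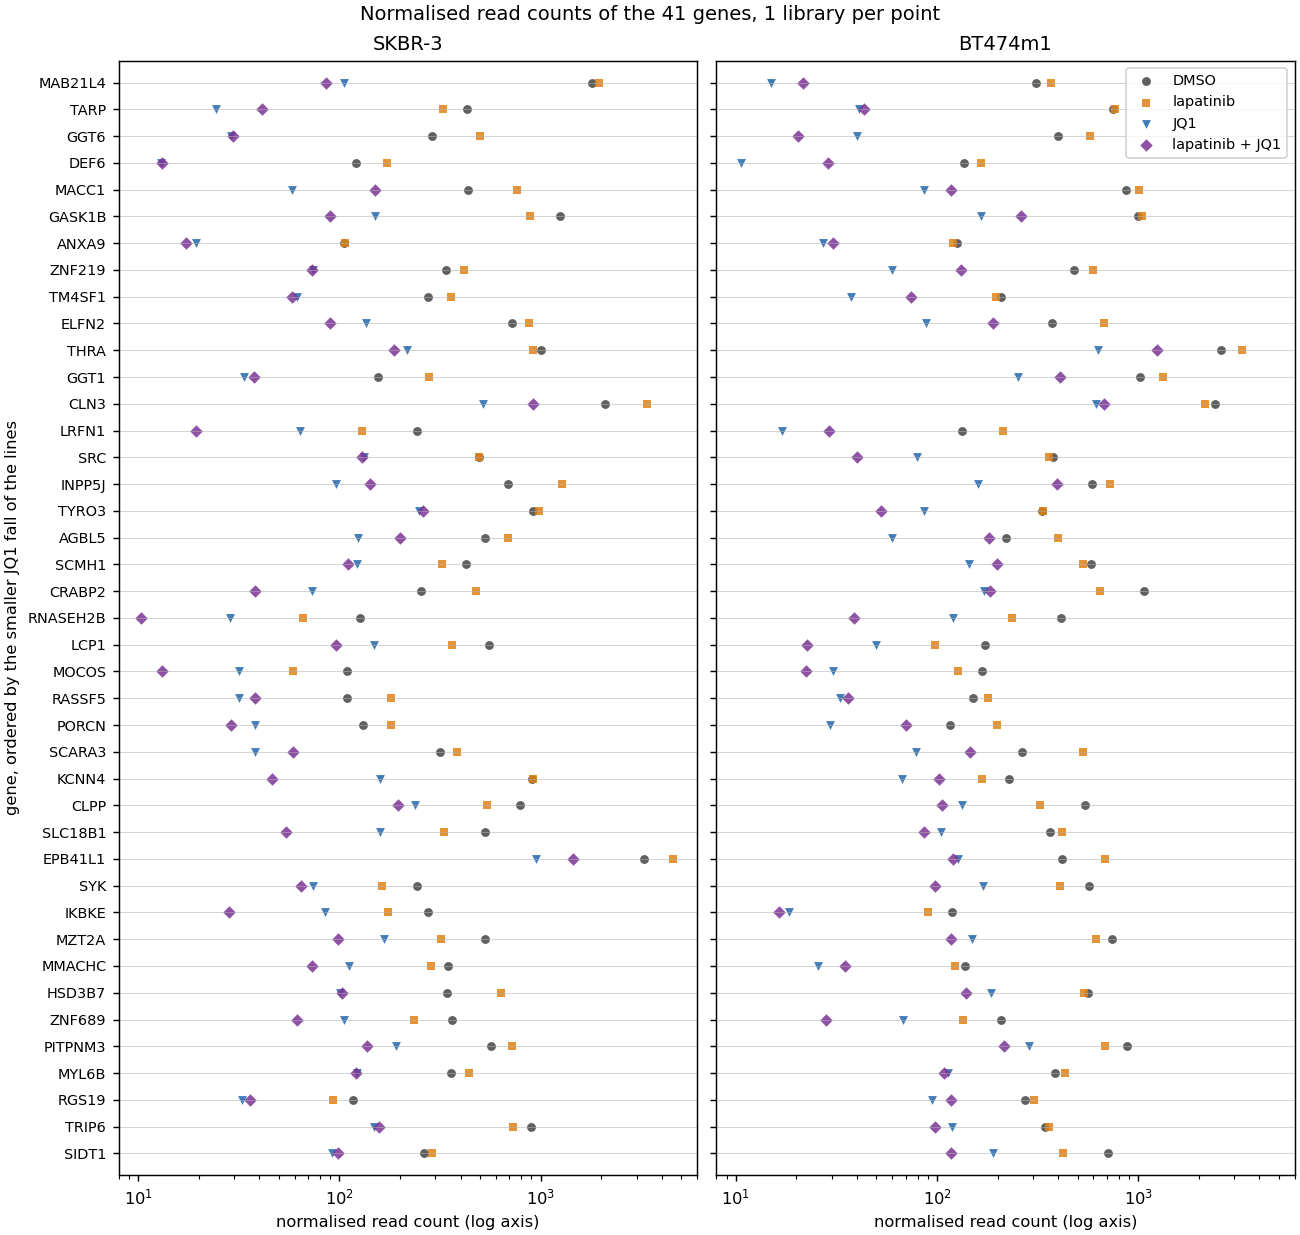
Normalised read counts (log axis) of the 41 genes, 1 row per gene and 1 point per library, with SKBR-3 on the left and BT474m1 on the right. In every row the triangles (JQ1) and diamonds (lapatinib + JQ1) lie to the left of the circles (DMSO) and squares (lapatinib).

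Just inside the JQ1 limit were SIDT1 at -1.51 in SKBR-3, TRIP6 at -1.52 in BT474m1 and RGS19 at -1.53 in BT474m1. Just outside it were TXNRD2, at -1.49 in both lines, UBXN8, at -1.46 and -1.49, and TET1, at -1.44 in BT474m1 but -3.01 in SKBR-3. The lapatinib limits passed between SCARA3, just under 1 in BT474m1, and SEMA4A, at 1.01 in SKBR-3. RNASEH2B and LRFN1, at -0.93 and -0.91 in SKBR-3, were the next nearest inside, and SPTSSB, at 1.04 in SKBR-3, and SORBS3, at 1.07 in BT474m1, the next nearest outside. The DMSO minimum kept ANXA9 at 105 and MOCOS and RASSF5 at 109.5 each in SKBR-3. It left out DNAJC22 at 99.5 and PLEKHA2 at 96.6 in SKBR-3 and KYNU at 97.6 in BT474m1.

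MAB21L4, listed under its former name C2orf54 and little studied, had the lowest JQ1 values relative to DMSO. Its values were 1808 in DMSO, 1961 under lapatinib, 105 under JQ1 and 85.3 under the combination in SKBR-3, and 309, 370.5, 15 and 21.6 in BT474m1. Both libraries with JQ1 were over 10 times below both without it in each line. With both drugs it was 21 times below DMSO in SKBR-3 and 13.7 times in BT474m1, at log2 differences of -4.39 (95% interval -4.68 to -4.15) and -3.78 (95% interval -4.36 to -3.36).

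TARP, which encodes a protein from an alternate reading frame of the T cell receptor gamma locus and is known from prostate and breast cells, followed closely. It was at 429 in DMSO, 328 under lapatinib, 24.3 under JQ1 and 41.3 under the combination in SKBR-3, and 750.0, 764, 40.9 and 43.6 in BT474m1. Adding lapatinib to JQ1 left it within 2-fold of JQ1 alone in both lines. Its exons overlap those of the receptor gamma genes TRGC1, TRGJ1 and TRGJP, and the counting could divide reads among them, so that its level is uncertain. The lymphocyte marker CD3E, which accompanies that receptor in T cells, was at most 2.86 in the 8 libraries.

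GGT6 and GGT1 encode gamma-glutamyl transferases, the family that cleaves glutathione outside the cell. GGT6 had values of 288 in DMSO, 502 under lapatinib, 29 under JQ1 and 29.6 under the combination in SKBR-3, and 399.8, 578, 40.1 and 20.4 in BT474m1. It was the gene lowest relative to DMSO with both drugs in BT474m1, at -4.23 (95% interval -4.82 to -3.80). GGT1 measured 155 in DMSO, 278 under lapatinib, 33.5 under JQ1 and 37.6 under the combination in SKBR-3, and 1027, 1337, 253 and 407 in BT474m1. Its value with DMSO differed between the lines by 2.72 on the log2 scale, while JQ1 minus DMSO was -2.17 in SKBR-3 and -2.01 in BT474m1. Reads of GGT1 may be shared with near-identical copies. One of them, GGT3P, had JQ1 minus DMSO of -0.03 and -0.46, and another family member, GGT7, -0.35 and -0.36. The family member GGT5 was at -0.43 in SKBR-3 and -1.74 in BT474m1, where its values were only 5.69 with DMSO and 1 with JQ1.

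Among the genes with the next lowest JQ1 values, MACC1, a regulator of MET transcription first described in colon cancer metastasis, stood at 434 in DMSO, 759.6 under lapatinib, 58 under JQ1 and 151 under the combination in SKBR-3, and 872, 1007, 86.5 and 118 in BT474m1. Both drugs together left MACC1 above JQ1 alone in each line, by 1.36 (95% interval 1.02 to 1.75) in SKBR-3 and 0.45 (95% interval 0.16 to 0.75) in BT474m1. GASK1B, a Golgi-associated kinase listed as FAM198B, was at 1246 in DMSO, 889.7 under lapatinib, 150.1 under JQ1 and 90.1 under the combination in SKBR-3, and 1000, 1049, 165 and 261 in BT474m1. Relative to JQ1 alone the combination was lower in SKBR-3, at -0.73 (95% interval -1.06 to -0.42), and higher in BT474m1, at 0.65 (95% interval 0.45 to 0.87). ANXA9, an annexin, had values of 105 in DMSO, 107 under lapatinib, 19.3 under JQ1 and 17.2 under the combination in SKBR-3, and 126, 119.9, 27.1 and 30.3 in BT474m1, and its combination values were 1.12 times below JQ1 alone in SKBR-3 and close to it in BT474m1, at 0.16 (95% interval -0.41 to 0.74).

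Promoters are where BET proteins and the elongation machinery meet, and the windows of the group were more often poor in CpG than those of all genes. RefSeq windows on GRCh38.p14, from 250 bases before to 50 after the gene start, were found for 35 of the 41 genes and for 7615 of the 9236. The first 250 bases of 4 of them are printed 5′ to 3′ on the gene's strand with every CG in capitals. They were chosen after the windows were seen, to show 3 CpG-poor windows of genes among the 6 lowest with JQ1 beside a CpG-rich window of the same group. MAB21L4 (chr2:240896157-240896406, minus strand), MACC1 (chr7:20217385-20217634, minus strand) and GASK1B (chr4:158173026-158173275, minus strand) hold 4, 4 and 3 CG pairs, and TYRO3 (chr15:41558962-41559211, plus strand) holds 39.
MAB21L4: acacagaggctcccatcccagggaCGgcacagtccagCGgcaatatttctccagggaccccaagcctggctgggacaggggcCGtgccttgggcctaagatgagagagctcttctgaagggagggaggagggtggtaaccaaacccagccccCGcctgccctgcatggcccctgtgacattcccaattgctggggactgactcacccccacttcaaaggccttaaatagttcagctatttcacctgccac
MACC1: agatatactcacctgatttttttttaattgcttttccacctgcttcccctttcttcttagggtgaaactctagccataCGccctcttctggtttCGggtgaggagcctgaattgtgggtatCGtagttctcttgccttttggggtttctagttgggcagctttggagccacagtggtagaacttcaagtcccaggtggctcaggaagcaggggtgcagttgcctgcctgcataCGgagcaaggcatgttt
GASK1B: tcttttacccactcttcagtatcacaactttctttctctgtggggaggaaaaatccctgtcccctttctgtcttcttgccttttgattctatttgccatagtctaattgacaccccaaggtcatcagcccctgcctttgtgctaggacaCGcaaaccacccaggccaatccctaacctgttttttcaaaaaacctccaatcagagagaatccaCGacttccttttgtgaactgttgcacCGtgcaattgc
TYRO3: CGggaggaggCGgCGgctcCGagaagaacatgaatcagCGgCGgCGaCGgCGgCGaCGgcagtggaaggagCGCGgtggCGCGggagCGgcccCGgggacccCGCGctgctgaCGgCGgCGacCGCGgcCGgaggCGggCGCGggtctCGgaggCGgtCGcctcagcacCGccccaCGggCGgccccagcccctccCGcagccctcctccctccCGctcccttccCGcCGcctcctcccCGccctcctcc

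The CpG ratio, the number of CG pairs over that given by the C and G content, was 0.152 in MAB21L4, 0.288 in MACC1, 0.238 in GASK1B and 1.01 in TYRO3 over the full 300 bases. Over the 35 windows its median was 0.629, against 0.866 over the 7615 windows, while the median GC content was 62.7% against 66%. A ratio under 0.5 was found in 12 of 35 windows (34.3%), against 583 of 7615 (7.66%). Among genes between 100 and 1000 in both DMSO libraries the shares were 8 of 28 (28.6%) and 298 of 3715 (8.02%). The low ratio was not limited to genes that lapatinib left alone, since the other genes lowered by JQ1 in both lines had 9 of 23 (39.1%). Genes that met the conditions in 1 line alone had 12 of 58 (20.7%) for SKBR-3 and 18 of 68 (26.5%) for BT474m1. Genes at least 2-fold higher with JQ1 in both lines had 2 of 45 (4.44%). Read the other way, 3.6% of the 583 genes with a low ratio were at -1.5 or less with JQ1 in both lines, against 0.526% of the 7032 others. These are descriptions of windows chosen from 1 annotated start per gene, and the start used in these cells was not measured.

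**Figure D2:**
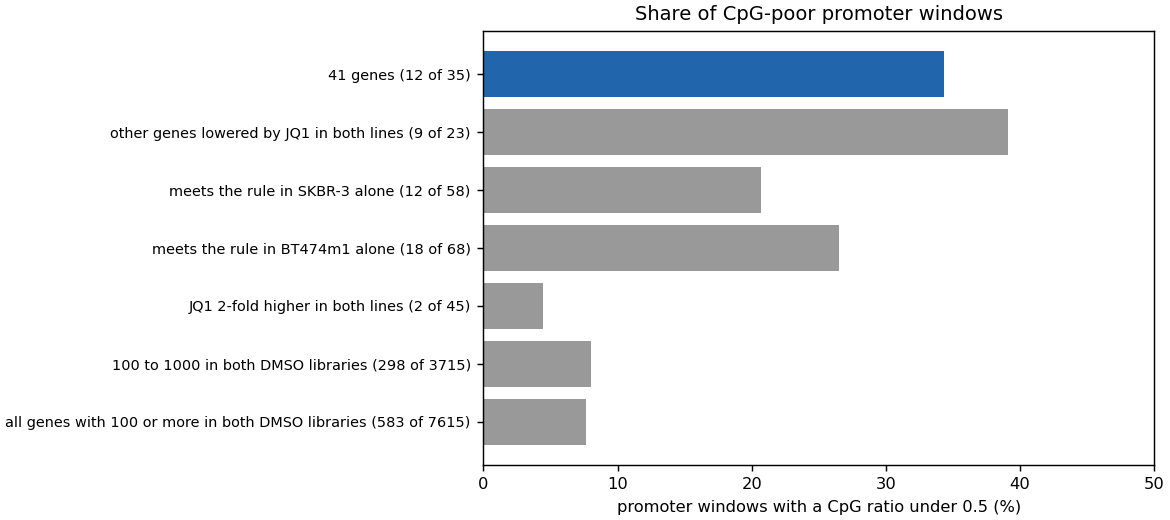
Share of promoter windows with a CpG ratio under 0.5 (bars, percent; counts beside each label) for the 41 genes and for comparison groups among the 9236 genes. The bars of genes lower with JQ1 in both lines reach 34.3% and 39.1%, against 7.66% for all genes with a window.

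Motifs were searched as letters on both strands of the 300 bases. The AP-1 site TGANTCA was present in 5 of the 35 windows (14.3%; MAB21L4, MMACHC, MYL6B, TRIP6 and TYRO3), against 3.7% of all windows. In the MAB21L4 line above it reads tgactca, near the end. The ETS site CCGGAAG was present in 3 (8.57%) against 22.7%, and the GC box GGGCGG in 19 (54.3%) against 73.1%. TATAAA was present in 5.71% against 4.66%, the E-box CACGTG in 11.4% against 11%, CCAAT in 28.6% against 37.8% and the GATA site AGATAA in 8.57% against 4.03%. GCCNNNGGC, an AP-2 site, was present in 25.7% against 32.5%, the cAMP response element TGACGTCA, which can hold no AP-1 match as spelled here, in 2.86% against 3.7%, and the grainyhead site AACCNGTT in 2.86% against 1.26%. The forkhead site TGTTTAC was in 0 of 35 windows and in 2.17% of all. With 35 windows a share moves by 2.86 percentage points for each window, and no match says only that these letters were not in this window.

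SRC, TYRO3, SYK and IKBKE encode signalling kinases. SRC, the founding cytoplasmic tyrosine kinase that relays signals from HER2 and integrins, measured 494 in DMSO, 495 under lapatinib, 133 under JQ1 and 129 under the combination in SKBR-3, and 379, 359.6, 79.2 and 40.2 in BT474m1. Lapatinib minus DMSO was 0.00 in SKBR-3 and -0.08 in BT474m1, and the combination was close to JQ1 alone in SKBR-3 but lower in BT474m1, at -0.96 (95% interval -1.40 to -0.56). TYRO3, a TAM family receptor tyrosine kinase, stood at 918 in DMSO, 979 under lapatinib, 249 under JQ1 and 260.0 under the combination in SKBR-3, and 333, 338, 86.5 and 52.5 in BT474m1. As for SRC, the combination was near JQ1 alone in SKBR-3 and lower in BT474m1, with both drugs minus JQ1 of 0.06 (95% interval -0.15 to 0.27) in SKBR-3 and -0.71 (95% interval -1.10 to -0.35) in BT474m1. For both kinases the 2 libraries without JQ1 nearly coincided, well above the 2 libraries with it.

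SYK, the tyrosine kinase downstream of immune receptors, was at 242 in DMSO, 162 under lapatinib, 73.5 under JQ1 and 64 under the combination in SKBR-3, and 570.5, 411, 169 and 98 in BT474m1. IKBKE, an IkappaB kinase relative that acts in innate immune signalling and is amplified in some breast cancers, had values of 275 in DMSO, 175 under lapatinib, 85.1 under JQ1 and 28.2 under the combination in SKBR-3, and 119, 89.8, 18.4 and 16.3 in BT474m1. Both had lapatinib values below DMSO in each line, and with both drugs IKBKE was 9.45 times below DMSO in SKBR-3 and 6.94 times in BT474m1. SYK, LCP1 and other genes named here without a place in the rule for named genes are included so that each of the 41 is accounted for. IKBKE and RASSF5 lie next to each other on chromosome 1, with 0 coding genes between them, and were the closest pair of the group. RASSF5, a RAS effector known from lymphocyte adhesion, measured 109.5 in DMSO, 179.9 under lapatinib, 31.6 under JQ1 and 37.8 under the combination in SKBR-3, and 150.4, 179, 32.9 and 36.2 in BT474m1, and unlike IKBKE it lay above DMSO with lapatinib in both lines.

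Regulators of GTPases and phosphoinositides formed the next set. DEF6, an exchange factor for small GTPases best known from T cells, stood at 120.3 in DMSO, 173 under lapatinib, 12.9 under JQ1 and 13.1 under the combination in SKBR-3, and 137, 166, 10.6 and 28.6 in BT474m1. In BT474m1 the combination left DEF6 above JQ1 alone, at 1.35 (95% interval 0.67 to 2.22), an interval that is wide because JQ1 left few reads. RGS19, which speeds GTP hydrolysis by G protein alpha subunits, was at 117 in DMSO, 92.6 under lapatinib, 32.9 under JQ1 and 35.8 under the combination in SKBR-3, and 274, 302, 94.7 and 118 in BT474m1. INPP5J, a phosphatase that removes phosphate from phosphoinositides of the PI3K pathway, had values of 691 in DMSO, 1282 under lapatinib, 96 under JQ1 and 142 under the combination in SKBR-3, and 592, 724, 159.9 and 397 in BT474m1. INPP5J with both drugs was 4.85 times below DMSO in SKBR-3 and only 1.49 times in BT474m1. PITPNM3, a membrane-associated phosphatidylinositol transfer protein, measured 565 in DMSO, 719 under lapatinib, 192 under JQ1 and 137 under the combination in SKBR-3, and 885, 687, 286 and 216 in BT474m1, with the combination below JQ1 alone in both lines.

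Of the genes for channels, receptors and other surface or membrane proteins, KCNN4, a calcium-activated potassium channel, differed most between the lines in both drugs minus DMSO. It stood at 907 in DMSO, 918 under lapatinib, 159 under JQ1 and 46.1 under the combination in SKBR-3, and 228, 167, 67.1 and 102 in BT474m1. The combination was the lowest library in SKBR-3, 19.3 times below DMSO, and lay between JQ1 and lapatinib in BT474m1, 2.22 times below DMSO. LRFN1, a leucine-rich repeat adhesion protein of synapses, was at 243 in DMSO, 129 under lapatinib, 63.8 under JQ1 and 19.3 under the combination in SKBR-3, and 133, 214, 16.9 and 29.2 in BT474m1. Lapatinib alone lay below DMSO in SKBR-3 and above it in BT474m1, at -0.91 (95% interval -1.19 to -0.64) and 0.68 (95% interval 0.46 to 0.91). ELFN2, another leucine-rich repeat membrane protein, had values of 718 in DMSO, 872 under lapatinib, 135 under JQ1 and 89.4 under the combination in SKBR-3, and 372, 673, 87.9 and 189 in BT474m1, and its combination values lay below JQ1 in SKBR-3 and above it in BT474m1.

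SCARA3, a class A scavenger receptor, measured 316 in DMSO, 385 under lapatinib, 38 under JQ1 and 58.5 under the combination in SKBR-3, and 266, 531, 78.3 and 146 in BT474m1. TM4SF1, a small transmembrane protein of motile cells, stood at 277 in DMSO, 357 under lapatinib, 61.2 under JQ1 and 57.8 under the combination in SKBR-3, and 209, 196, 37.2 and 74.6 in BT474m1. PORCN, the acyltransferase that adds the lipid Wnt ligands need for secretion, was at 131 in DMSO, 179.9 under lapatinib, 38 under JQ1 and 28.9 under the combination in SKBR-3, and 116, 199, 29.5 and 70.0 in BT474m1. In BT474m1 all of SCARA3, TM4SF1 and PORCN were higher with both drugs than with JQ1 alone, at log2 differences of 0.89, 0.99 and 1.22. SIDT1, a transmembrane protein linked to transport of double-stranded RNA, had values of 264 in DMSO, 289 under lapatinib, 92.1 under JQ1 and 98.4 under the combination in SKBR-3, and 708, 423, 189.9 and 118 in BT474m1. SLC18B1, a vesicular polyamine transporter listed as C6orf192, measured 527 in DMSO, 330.0 under lapatinib, 159 under JQ1 and 54.3 under the combination in SKBR-3, and 363, 420.5, 105 and 86.3 in BT474m1, and in SKBR-3 the combination was below JQ1 alone by -1.53 (95% interval -1.93 to -1.17).

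Among the genes for nuclear proteins, THRA, the thyroid hormone receptor alpha, stood at 1004 in DMSO, 913 under lapatinib, 217 under JQ1 and 187 under the combination in SKBR-3, and 2584, 3299, 635 and 1243 in BT474m1. The combination was near JQ1 alone in SKBR-3 and higher in BT474m1, at 0.97 (95% interval 0.87 to 1.07), where it was 2.08 times below DMSO. ZNF219, a zinc finger protein, was at 337 in DMSO, 417 under lapatinib, 74.1 under JQ1 and 72.9 under the combination in SKBR-3, and 480.0, 598, 59.9 and 131 in BT474m1, with the same arrangement. ZNF689, another zinc finger protein, had values of 364 in DMSO, 236 under lapatinib, 105 under JQ1 and 61.2 under the combination in SKBR-3, and 207, 134, 68.1 and 28 in BT474m1, with the combination lowest in both lines. SCMH1, a Polycomb group protein, measured 428 in DMSO, 325 under lapatinib, 122 under JQ1 and 110.1 under the combination in SKBR-3, and 585, 534, 145 and 198 in BT474m1. These zinc finger genes were 2 of 240 ZNF genes with 100 or more in both DMSO libraries.

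RNASEH2B, a subunit of the ribonuclease that removes ribonucleotides from DNA, stood at 127 in DMSO, 65.8 under lapatinib, 28.4 under JQ1 and 10.3 under the combination in SKBR-3, and 416, 236, 120.3 and 38.5 in BT474m1. It had the same order in both lines, with DMSO highest, then lapatinib, JQ1 and the combination, and was 11.3 times below DMSO with both drugs in SKBR-3 and 10.6 times in BT474m1. TRIP6, a LIM domain adaptor of focal adhesions and the nucleus, was at 896 in DMSO, 726 under lapatinib, 149 under JQ1 and 157 under the combination in SKBR-3, and 344, 359.6, 119 and 98 in BT474m1. CRABP2, which carries retinoic acid to its nuclear receptors, had values of 254 in DMSO, 477 under lapatinib, 72.8 under JQ1 and 37.8 under the combination in SKBR-3, and 1068, 643, 171 and 183 in BT474m1. Lapatinib lay above DMSO for CRABP2 in SKBR-3, at 0.91 (95% interval 0.72 to 1.10), and below it in BT474m1, at -0.73 (95% interval -0.84 to -0.63), while both drugs were 6.57 and 5.83 times below DMSO.

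Cytoskeletal genes made up another set. EPB41L1, a linker between membrane proteins and the actin skeleton, measured 3263 in DMSO, 4543 under lapatinib, 950.4 under JQ1 and 1446 under the combination in SKBR-3, and 419, 682, 127 and 120.1 in BT474m1. Its DMSO value was 2.96 higher in SKBR-3 on the log2 scale, and JQ1 minus DMSO was -1.78 and -1.72. AGBL5, a carboxypeptidase that trims glutamates from tubulin, stood at 532 in DMSO, 687 under lapatinib, 123 under JQ1 and 201 under the combination in SKBR-3, and 221, 399, 60.0 and 181 in BT474m1. In BT474m1 AGBL5 with both drugs was 1.22 times below DMSO, the smallest difference of the 41 genes, and above JQ1 alone by 1.58 (95% interval 1.29 to 1.91). LCP1, the actin-bundling L-plastin of blood cells, was at 555 in DMSO, 363 under lapatinib, 149 under JQ1 and 96.3 under the combination in SKBR-3, and 174, 97.6, 49.8 and 22.7 in BT474m1, with lapatinib below DMSO and the combination lowest in both lines.

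MZT2A, a component of gamma-tubulin complexes listed as FAM128A, had values of 528 in DMSO, 320.2 under lapatinib, 166 under JQ1 and 98 under the combination in SKBR-3, and 738, 616, 149 and 118 in BT474m1. Its reads may be shared with the near-identical MZT2B, which had JQ1 minus DMSO of -0.92 in SKBR-3 and -1.61 in BT474m1. MYL6B, a myosin light chain, measured 359 in DMSO, 442 under lapatinib, 122 under JQ1 and 120.4 under the combination in SKBR-3, and 388, 433, 113 and 108 in BT474m1, while its paralogue MYL6 had JQ1 minus DMSO of 0.09 and 0.56. The combination left MYL6B 1.01 times below JQ1 alone in SKBR-3 and 1.04 times below it in BT474m1.

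Genes of organelles and metabolism completed the group. CLN3, a lysosomal membrane protein mutated in Batten disease, stood at 2097 in DMSO, 3364 under lapatinib, 519 under JQ1 and 916 under the combination in SKBR-3, and 2399, 2162, 617 and 677 in BT474m1. In SKBR-3 lapatinib lay above DMSO and the combination above JQ1, by 0.68 (95% interval 0.61 to 0.75) and 0.82 (95% interval 0.69 to 0.95), and in BT474m1 these differences were -0.15 and 0.13. CLPP, a mitochondrial protease subunit, was at 793 in DMSO, 542 under lapatinib, 238 under JQ1 and 195 under the combination in SKBR-3, and 544, 326, 133 and 106 in BT474m1. MOCOS, which activates molybdenum enzymes, had values of 109.5 in DMSO, 59 under lapatinib, 31.6 under JQ1 and 13.1 under the combination in SKBR-3, and 168, 127, 30.4 and 22.2 in BT474m1. Both had the order DMSO, lapatinib, JQ1, combination from high to low in each line. MMACHC, which processes cobalamin cofactors, measured 345 in DMSO, 285 under lapatinib, 111 under JQ1 and 72.9 under the combination in SKBR-3, and 138, 123, 25.6 and 35 in BT474m1. HSD3B7, an enzyme of bile acid synthesis, stood at 342 in DMSO, 637 under lapatinib, 101 under JQ1 and 103 under the combination in SKBR-3, and 562, 536, 186 and 139.9 in BT474m1, with lapatinib above DMSO in SKBR-3 at 0.89.

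The combination libraries, which were not used to choose the genes, were low for the group as well. Both drugs minus DMSO had a median of -2.28 in SKBR-3, with a range of -4.39 to -1.17, and of -2.03 in BT474m1, with a range of -4.23 to -0.29. It was at -1 or less for 41 of 41 genes in SKBR-3, against 16.9% of the 9236 genes, and for 36 of 41 in BT474m1, against 11.1%. The 5 exceptions in BT474m1 were AGBL5 at -0.29, INPP5J at -0.58, PORCN at -0.73, SCARA3 at -0.86 and ELFN2 at -0.97. Each interval of these 5 lay below 0. The median over all 9236 genes was -0.08 in SKBR-3 and -0.03 in BT474m1.

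Set against lapatinib alone, the combination describes the difference with JQ1 added to lapatinib, between 1 library and 1 library in each line. Both drugs minus lapatinib had a median of -2.38 in SKBR-3 and -1.99 in BT474m1, and of -0.07 and 0.00 over all 9236 genes. It was at -1 or less for 41 of 41 genes in SKBR-3, against 8.72% of all, and for 39 of 41 in BT474m1, against 5.59%. KCNN4 at -0.70 (95% interval -0.99 to -0.43) and INPP5J at -0.87 (95% interval -1.01 to -0.73) were the exceptions. Both libraries with JQ1 were below both libraries without it for 41 of 41 genes in SKBR-3, 41 of 41 in BT474m1 and 41 of 41 in both, against 19.8%, 22.7% and 10.3% of the 9236 genes. The conditions fix part of this order, since they place JQ1 alone below both DMSO and lapatinib.

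Genes chosen in 1 line and read in the other give values that the choice did not use, apart from the DMSO minimum. The conditions were met by 117 genes in SKBR-3 and by 126 in BT474m1, with the DMSO minimum in both lines. Of the 117, JQ1 minus DMSO in BT474m1 had a median of -1.33, was below 0 for 111 (94.9%, against 54% of the 9236) and was at -1.5 or less for 51 (43.6%, against 1.86%). Of the 126, JQ1 minus DMSO in SKBR-3 had a median of -1.29, was below 0 for 120 (95.2%, against 54.5%) and was at -1.5 or less for 53 (42.1%, against 2.02%). With both drugs, 74 of the 117 (63.2%, against 11.1% of the 9236) were at least 2-fold below DMSO in BT474m1, with a median of -1.45, and 79 of the 126 (62.7%, against 16.9%) in SKBR-3, with a median of -1.51. These medians are closer to 0 than those of the 41 genes, which had to pass in both lines. In the other line, lapatinib minus DMSO was inside the limits for 97 of the 117 (82.9%) and 90 of the 126 (71.4%). Of the 9236 genes, 6.46% were at -1 or less with lapatinib in BT474m1 and 4.57% at 1 or more. In SKBR-3 these shares were 8.26% and 5.61%. The genes chosen in 1 line thus stayed inside the lapatinib limits of the other less often than all genes did.

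The side on which lapatinib lay of DMSO was set beside the side on which both drugs lay of JQ1, and the share on the same side was lower over the 41 genes than over all genes in each line. Lapatinib minus DMSO and both drugs minus JQ1 share no library, although DMSO, lapatinib and JQ1 libraries chose the genes. In SKBR-3, of the 17 genes that lay below DMSO with lapatinib, 14 (82.4%) lay below JQ1 with both drugs, with a median of -0.62. Of the 24 genes above DMSO with lapatinib, 13 (54.2%) lay above JQ1 with both drugs, with a median of 0.02. In BT474m1 the counts were 12 of 19 (63.2%) and 16 of 22 (72.7%), with medians of -0.33 and 0.58. Over the 9236 genes the shares on the same side were 87.8% and 81.7% in SKBR-3 and 83.3% and 83.1% in BT474m1. Across the 41 genes Pearson's r between these differences was 0.61 in SKBR-3 and 0.657 in BT474m1 (Spearman's rho 0.614 and 0.659), against 0.905 and 0.906 across the 9236. Genes are not independent replicates, and the lapatinib limits narrow the range over the 41. The 9236 genes were not held to these limits, so that lower shares on the same side and a lower r over the 41 are partly set by the choice.

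**Figure D3:**
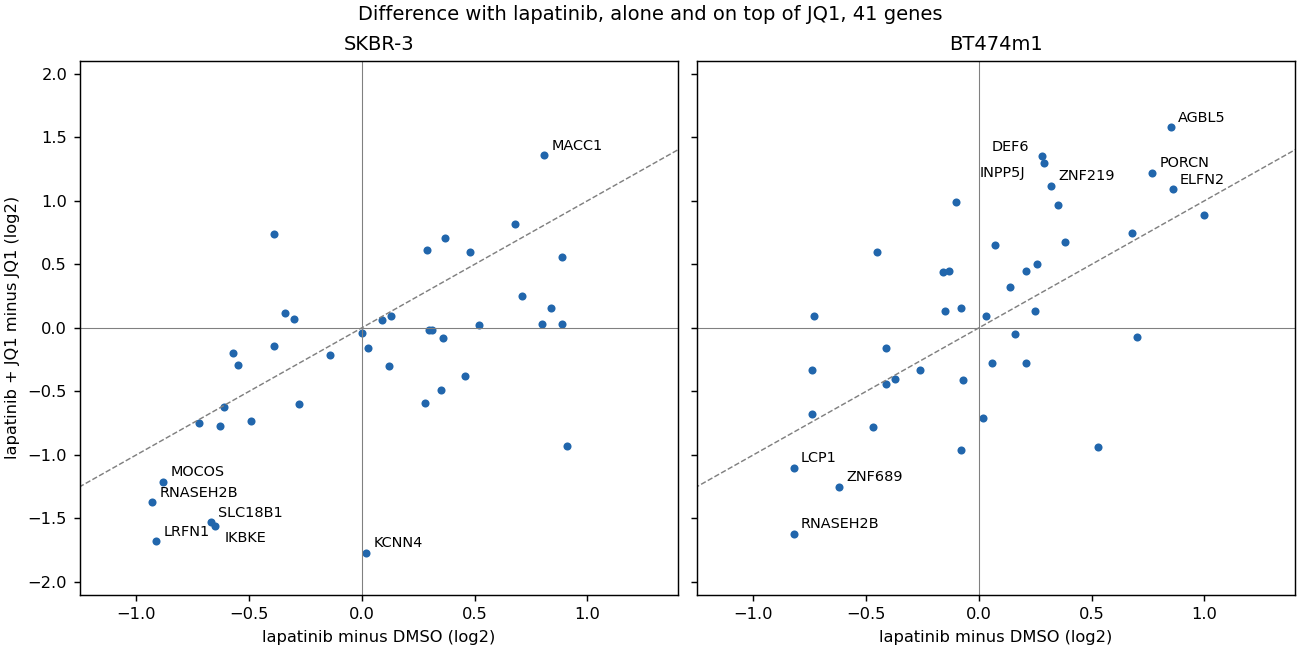
Lapatinib minus DMSO (x axis, log2) against lapatinib + JQ1 minus JQ1 (y axis, log2) for the 41 genes, 1 point per gene and 1 panel per line; the dashed line marks equal differences and genes at least 2-fold from JQ1 alone are named. In SKBR-3 KCNN4 lies at 0.02 on the x axis and -1.77 on the y axis.

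The log2 differences of the single drugs were added and the combination compared with that sum. In SKBR-3 the combination lay below that sum for 30 of the 41 genes (73.2%, against 56.9% of the 9236) and above it for 11, with a median deviation of -0.31 and a range of -1.83 to 1.13. In BT474m1 it lay below for 17 (41.5%, against 46.5%) and above for 24, with a median of 0.18 and a range of -1.47 to 1.08. Over the 9236 genes the median deviation was -0.05 and 0.02. Deviations under 0.5 in size were found in 27 (65.9%) and 24 (58.5%) of the 41 genes, against 83.9% and 87.9% of all. The DMSO and JQ1 values of the 41 were chosen far apart, which by itself moves this deviation.

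Relative to JQ1 alone, the combination had no shared sign over the group. Both drugs minus JQ1 had a median of -0.14 in SKBR-3 and 0.13 in BT474m1. In SKBR-3 6 genes were at -1 or less (KCNN4, LRFN1, IKBKE, SLC18B1, RNASEH2B and MOCOS), against 10.8% of the 9236, and 1, MACC1, was at 1 or more, against 5.72%. In BT474m1 3 genes were at -1 or less (RNASEH2B, ZNF689 and LCP1), against 5.42%, and 6 were at 1 or more (AGBL5, DEF6, INPP5J, PORCN, ZNF219 and ELFN2), against 3.79%. RNASEH2B was at -1 or less in both lines. The sign was opposite in the lines for 19 genes (46.3%, against 30.1% of the 9236), and 13 were lower in SKBR-3 and higher in BT474m1 (31.7%, against 15.9%). Because the JQ1 libraries were chosen low, values above JQ1 are favoured in this difference. Pearson's r between the lines was 0.243 across the 41 genes (Spearman's rho 0.205) and 0.745 across the 9236.

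**Figure D4:**
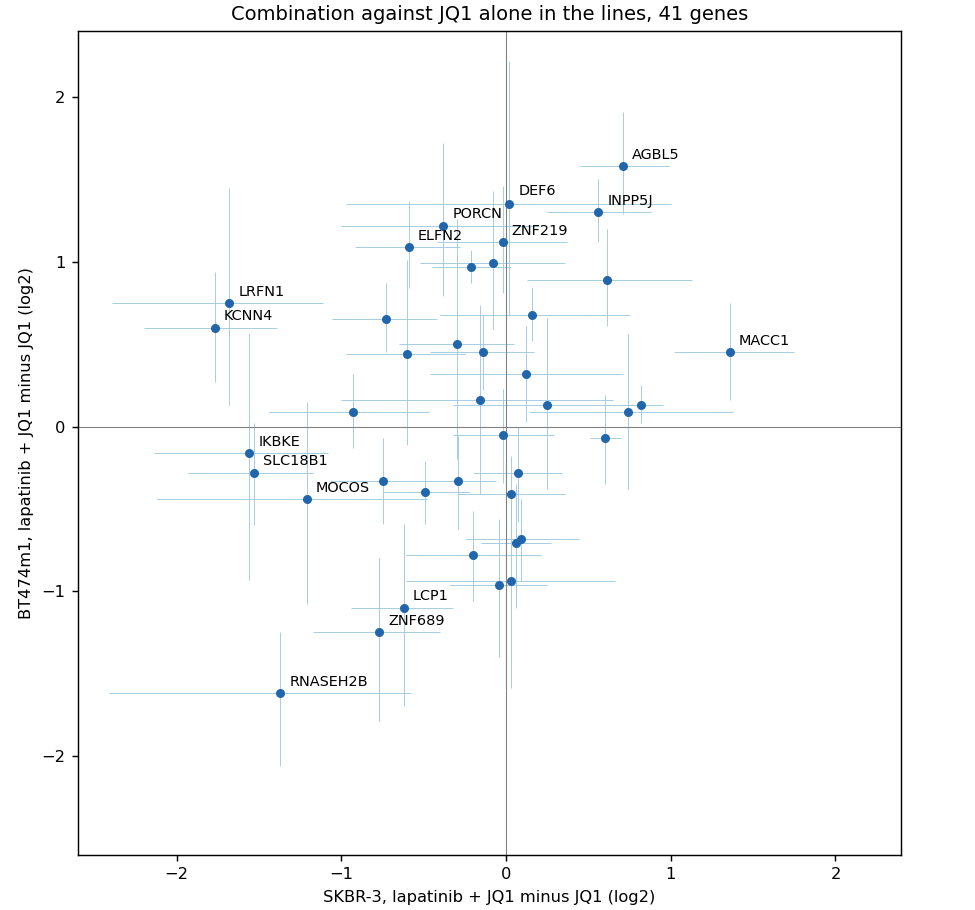
Lapatinib + JQ1 minus JQ1 (log2) in SKBR-3 (x axis) and BT474m1 (y axis) for the 41 genes, with 95% counting intervals as bars and names for genes at least 2-fold from JQ1 in either line. LRFN1 and KCNN4 lie at -1.68 and -1.77 in SKBR-3 and at 0.75 and 0.60 in BT474m1.

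The 41 genes were compared with the other genes at -1.5 or less with JQ1 in both lines, 74 in all. Of these, 5 were also at least 2-fold lower with lapatinib in both lines, 6 were at least 2-fold higher, and 22 passed a lapatinib limit in 1 line or in opposite directions. With both drugs the 41 genes lay between the lapatinib-lowered and the lapatinib-raised genes: their medians of -2.28 and -2.03 against DMSO stand beside -5.49 and -3.37 for the 5 lapatinib-lowered genes and -0.52 and -1.09 for the 6 lapatinib-raised genes. Relative to JQ1 alone the medians were -0.14 and 0.13, beside -3.36 and -1.83, and 2.08 and 1.56. The 22 remaining genes were close to the 41, with medians of -2.43 and -2.21 against DMSO and -0.20 and -0.23 against JQ1. Within the small classes KIF14, a mitotic kinesin, was at -8.62 and -5.77 against DMSO, and NUPR1, a stress-induced nuclear protein, at 2.55 and -1.63. The classes were chosen on lapatinib, so that this order is partly set by the choice, and it was not tested.

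**Figure D5:**
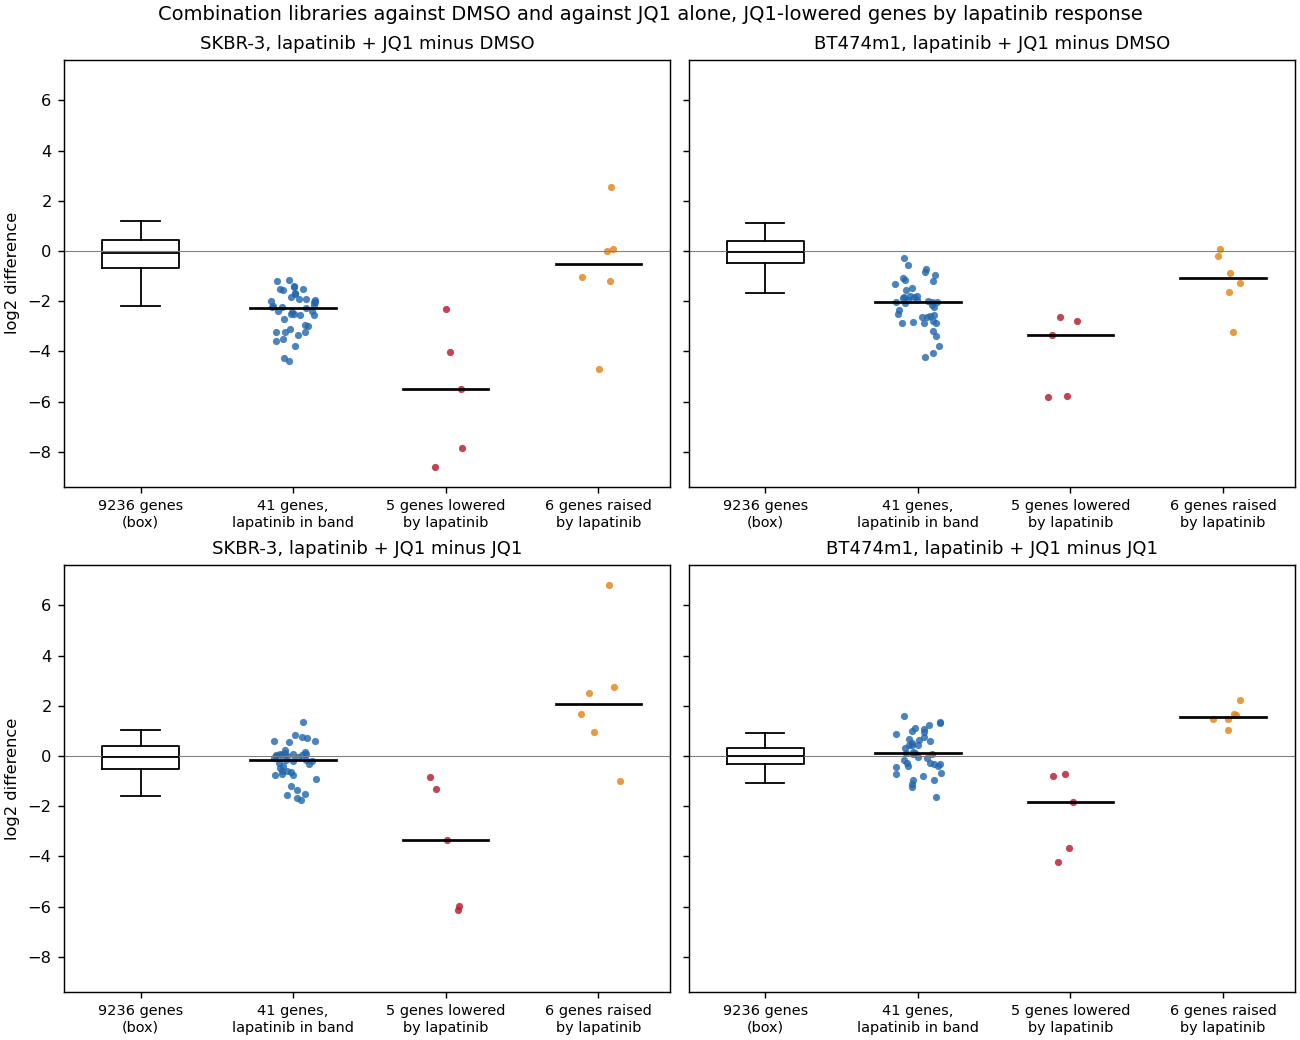
Lapatinib + JQ1 minus DMSO (top) and minus JQ1 (bottom), log2, in SKBR-3 (left) and BT474m1 (right): points are genes at -1.5 or less with JQ1 in both lines, black bars their medians, and boxes the quartiles and median of the 9236 genes with whiskers at the 5th and 95th percentiles. The medians of the 41 genes against JQ1 are -0.14 and 0.13, between those of the lapatinib-lowered and lapatinib-raised genes; the 22 remaining genes are not drawn.

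The DMSO libraries show how the lines differed before treatment. Of the 41 genes, 17 (41.5%) were at least 2-fold apart between the lines, 8 higher in BT474m1 and 9 higher in SKBR-3, against 25.9% of the 9236 genes. The extremes were GGT1, 2.72 higher in BT474m1 on the log2 scale, and EPB41L1, 2.96 higher in SKBR-3. CRABP2 was 2.07 higher in BT474m1 and MAB21L4 2.54 higher in SKBR-3. The median difference over the group was 0.11.

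The functions of the 41 genes were compared with 28 gene lists for pathways and gene families of breast epithelium, written for these data. In all, 8 of the 41 (19.5%) were in a list, against 462 (5%) of the 9236, and 22 lists held none of them. The lists were written with earlier results of these data known, so that this share supports nothing. The 41 are 0.444% of the 9236 genes, and at that share a single list or family of these sizes holds about 1 member or none. Glutathione metabolism held GGT1 and GGT6 among 17 genes with 100 or more in both DMSO libraries, and no other gene of that list was at -1.5 or less with JQ1 in both lines. Receptor and SRC-family tyrosine kinases held SRC and TYRO3 among 22, with median JQ1 minus DMSO of -0.17 and -0.19. PORCN was the 1 gene of 17 Wnt pathway genes, INPP5J 1 of 25 phosphoinositide genes, and KCNN4 1 of 13 potassium and chloride channels. CRABP2 was 1 of 8 retinoid and vitamin D genes, of which 4 were at -1.5 or less in BT474m1 and 1 in SKBR-3, with medians of -1.38 and -0.46.

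Cell cycle genes, which lapatinib lowered by a median of -3.52 in SKBR-3 and -4.36 in BT474m1, held 0 of the 41 among 36, and none was at -1.5 or less with JQ1 in both lines. Keratins, with median JQ1 minus DMSO of 1.47 and 0.40, held 0 among 7. The conditions keep out genes that lapatinib lowers 2-fold or that JQ1 raises, so that the counts of 0 in both lists were largely set by the choice. The MYC network held 0 among 10, with medians of -0.05 and 0.09, although MYC itself was at -0.19 in SKBR-3 and -3.60 in BT474m1. By symbol, solute carriers held 1 of 166, TMEM genes 0 of 107 and ribosomal protein genes 0 of 97. The 41 are 0.444% of the 9236 genes, so that counts of 0 or 1 say little about these families. The group was spread over the genome, with 6 genes on chromosome 1 (14.6%, against 10.4% of the 9236) and none on chromosomes 5, 10, 11 and 21, which hold 4.37%, 3.75%, 5.88% and 1.01% of the 9236. The median gene span was 24027 bases on GRCh38.p14, against 31239 over 9216 genes.

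Counts of several members can hold reads of overlapping genes, since the strand used in counting is not given in the sources used here. By the RefSeq annotation THRA overlaps NR1D1, ZNF219 overlaps ARHGEF40 and TMEM253, AGBL5 overlaps OST4, and MMACHC overlaps PRDX1. CLN3 overlaps NPIPB7, PITPNM3 overlaps PIMREG, RASSF5 overlaps EIF2D, SCARA3 overlaps CCDC25 and GGT1 overlaps LRRC75B. What these partners add to the values was not tested.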

How the data were processed

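Poly(A) RNA of 8 cultures, 1 library per group, was sequenced by the study, and the groups were taken from the labels. Each deposited table holds 1 signal value per gene, which the authors made from RSEM read estimates by setting the upper quartile of the library to 1000. The submitters' processing notes name the hg19 build, Picard 1.88, SAMtools 1.2, RSEM, DESeq, DESeq2 1.12.3 and R 3.2.2; the study's methods name another build and counting tool, so that the annotation behind these values is uncertain and no coordinates on their build are given; those printed are RefSeq's on GRCh38.p14. The library kit is named in 2 ways in the labels.

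Log2 differences were formed from log2(value + 1) within each line over all 20531 genes with scipy 1.17.1, pandas 2.3.3 and numpy 2.4.6 under Python 3.11.15, and drawn with matplotlib 3.10.9. Reads were recovered as the common step between the values of a library (83.5% to 84.8% of the values above 0 were whole within 0.01 of a read), giving 95% Clopper-Pearson intervals; 3 reads, the floor, were worth 1.41 to 2.30 units. The members, the gene lists and the motifs were chosen with earlier results of these data known. Genes named with values were the 20 members lowest with JQ1 by the smaller fall of the lines, the 5 highest and 5 lowest with both drugs, the 5 highest with DMSO, the 3 nearest each limit on either side, and members of a gene list; the other members are named for completeness. Names came from RefSeq for 20372 genes by Entrez identifier, and promoter windows from RefSeq on GRCh38.p14. The steps were tested on simulated data at these depths, with counting error alone and planted falls well past the JQ1 limit. That test says nothing about genes near the limits or about spread between cultures. Alternatives were a pseudocount of 10, other scalings, other limits, and genes chosen in the other line only; the CpG limits were added after seeing the data. With 1 library per group no p-value is given.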

Additional observations from a re-analysis of the deposited data

Results flagged for a closer look

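For 4 of the 41 genes the combination lay on opposite sides of JQ1 alone in the lines, each beyond its own counting interval. LRFN1 was at -1.68 in SKBR-3 and 0.75 in BT474m1, a difference between the lines of 2.43 on the log2 scale. KCNN4 was at -1.77 and 0.60, a difference of 2.36. ELFN2 was at -0.59 and 1.09, a difference of 1.69. GASK1B was at -0.73 and 0.65, a difference of 1.38. All 4 were lower with both drugs than with JQ1 in SKBR-3 and higher in BT474m1. LRFN1 also had lapatinib on opposite sides of DMSO, at -0.91 and 0.68. The difference between the lines was not tested, because each group held 1 library. How many of the 9236 genes meet the same condition was not counted, so that 4 of 41 cannot be called unusual. Opposite signs alone were found in 46.3% of the 41 genes and 30.1% of the 9236.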

How the results depend on the processing

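With a pseudocount of 10, scaling to equal totals or scaling by the median of ratios, 37, 52 and 38 genes met the conditions, and 36, 40 and 36 of the 41 were among them. Of these 37, 52 and 38 genes, 37, 51 and 38 were at least 2-fold below DMSO with both drugs in SKBR-3 and 32, 45 and 33 in BT474m1, and 37, 51 and 38 below lapatinib in SKBR-3 and 34, 46 and 35 in BT474m1. Their medians against DMSO were -2.1, -2.21 and -2.27 in SKBR-3 and -1.90, -1.99 and -2.06 in BT474m1. Scaling to equal totals moved the median of all genes for JQ1 minus DMSO in SKBR-3 by -0.15, and scaling by the median of ratios moved that for both drugs minus DMSO by 0.14 and minus lapatinib by 0.16. Of 164 differences of single genes with both drugs under each of these settings, none reversed, and 0 with the pseudocount, 1 with equal totals and 4 with the median of ratios moved by more than the half-width of their counting interval.

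A JQ1 limit of -1 gave 127 genes. In SKBR-3, 101 were at least 2-fold below DMSO with both drugs and 111 below lapatinib, with medians of -1.72 and -1.65, and in BT474m1 89 and 103, with -1.48 and -1.45. A limit of -2 gave 12 genes, of which 12 and 12 were so in SKBR-3, with medians of -2.77 and -2.91, and 11 and 12 in BT474m1. A lapatinib limit of 0.5 gave 16 genes, with 16 and 16 in SKBR-3 and 16 and 15 in BT474m1. A DMSO minimum of 10 gave 101 genes, with 98 and 97, and 93 and 96. A minimum of 500 gave 7 genes, with 7 and 7, and 6 and 6, and a median of -1.66 against lapatinib in BT474m1. Genes chosen in the other line only gave 79 and 92 of 126 in SKBR-3, with medians of -1.51 and -1.51, and 74 and 79 of 117 in BT474m1, with -1.45 and -1.51. These counts move with the number of genes each limit admits, and the shares move as well. In BT474m1, 89 of 127 genes at a JQ1 limit of -1 were at least 2-fold below DMSO, and 93 of 101 at a DMSO minimum of 10, beside 36 of 41.

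The share of low CpG ratios was 31.4% at a limit of 0.4 and 42.9% at 0.6, both chosen after seeing the data. Leaving out a replicate was not possible with 1 library per group. No paired analysis was run: the labels give no replicate numbers that pair libraries, and a fit with the line as a block was left out. The depth limits the lowest genes, whose intervals are wide.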
